A study of Mus musculus with 24 samples.

Results

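The 9 transcription factor genes described here are Spi1, Maf, Mef2a, Mef2c, Runx1, Cebpa, Cebpb, Bhlhe41 and Ikzf1, chosen by symbol as factors of microglia and other macrophages, and all 9 were among the 20555 genes of each deposited table. RNA was sequenced from cells sorted out of mouse brain slices given PBS or exosomes (5 µg per slice) over 2 days. Exosomes are small vesicles that cells release, and these carried PKH67, a green membrane dye. Besides PBS, 3 kinds of exosome were given, labelled wild type (WT), knock out 1 (KO1) and knock out 2 (KO2) after their donor cells. The knockouts belong to the cells that gave the exosomes and not to the mouse, so the deleted gene could not be checked in these libraries. Strain, age and sex of the mice and the donor cell line are not named in the labels. Microglia are the brain's own macrophages; they were gated as CD45+ with low CD11b and low CD49d, and gave 11 libraries, of which 2 were PBS and 9 were exosome libraries, 3 per kind. Endothelial cells, gated as CD45- CD31+, serve as the contrast and gave 10 libraries (3 PBS, 2 WT, 3 KO1 and 2 KO2). The labels call every sample, PBS included, sorted for exosome signal, and they do not say what the letters A, B and C of the libraries stand for. Spread between libraries, on which all p-values rest, may thus be technical in part.

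In macrophages PU.1, the ETS-family product of Spi1, is the factor around which the lineage is set up, and it opens regulatory DNA together with partners such as C/EBP, RUNX, MEF2 and MAF proteins. In mouse brain, MEF2 and MAF factors are associated with the mature microglial state, and C/EBPβ, the product of Cebpb, with inflammatory gene expression. Bhlhe41 encodes DEC2, a basic helix-loop-helix repressor that binds the E-box and acts in the circadian clock and, with Bhlhe40, in tissue macrophages. Ikzf1 encodes Ikaros, a zinc finger factor of blood cells.

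Promoter sequence is shown for Bhlhe41, whose tested difference between WT and PBS was the largest among the members in both cell types, and for Mef2a, the 1 member whose window held the PU.1 word more than once. Windows reached from 250 bases before to 50 bases after the start. RefSeq windows (GRCm38.p6) were found for 7 of the 9 members, in 11 windows, and not for Spi1 and Maf. The 250 bases before the start follow, 5′ to 3′ on the gene's strand, with CACGTG (the E-box of BHLHE factors) in capitals for Bhlhe41 and GAGGAAG (an ETS word bound by PU.1) in capitals for Mef2a.
Bhlhe41 (chr6:145865421-145865670, minus strand): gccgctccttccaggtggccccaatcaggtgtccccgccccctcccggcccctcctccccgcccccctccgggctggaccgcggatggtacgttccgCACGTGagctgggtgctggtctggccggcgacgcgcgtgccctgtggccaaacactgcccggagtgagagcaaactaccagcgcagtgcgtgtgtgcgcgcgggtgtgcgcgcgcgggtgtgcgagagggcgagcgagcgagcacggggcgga
Mef2a (chr7:67372859-67373108, minus strand): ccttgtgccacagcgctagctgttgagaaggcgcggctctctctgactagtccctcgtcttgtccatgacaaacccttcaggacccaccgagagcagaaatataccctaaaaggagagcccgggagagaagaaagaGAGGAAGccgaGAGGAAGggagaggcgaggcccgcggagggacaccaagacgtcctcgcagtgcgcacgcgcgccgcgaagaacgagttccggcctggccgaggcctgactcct
The E-box of Bhlhe41 began 153 bases before the start, and CACGTG stood on either strand in 7.15% of all 32851 promoter windows of the same length. The 2 copies of GAGGAAG in Mef2a began 114 and 103 bases before its start, and 13.6% of all windows held at least 1. Of the 6 words searched on both strands, Runx1 held 2 copies of TGTGGT (RUNX) on the minus strand, at bases 29 and 37 after the start, and CACGTG once, while Mef2c held GAGGAAG once and TGCTGA (the MAF recognition core) once. Mef2a also held CTATTTN (one arm of the MEF2 site) on the minus strand at base 2 after the start. Over all windows TGTGGT stood in 16.8%, TGCTGA in 19.5% and CTATTTN in 12.1%, and TTGCNNAA (C/EBP) stood in 10.8%. The windows of Cebpa, Cebpb and Ikzf1 held none of the 6 words.

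The values are variance-stabilised log2 counts as deposited, from which normalised counts were recovered for description. Per library these summed to 26.3 to 28.2 M in microglia and 25.7 to 28.0 M in endothelial cells, with 10139 to 11292 and 9235 to 11952 genes above the floor, the value of a gene with no reads. In microglia the 12 microglial markers summed to 21928 to 32477 counts and the 12 endothelial markers to 261 to 860. Of the 12 microglial markers, 4 to 8 reached 100 counts in a library, and Cx3cr1, also among the 12, had 0 to 156. Oligodendrocyte markers summed to 3193 to 9182 counts in the same libraries and astrocyte markers to 565 to 2588. Csf1r, the receptor that microglia need to survive, lay between 698 and 2043 in microglia, whereas P2ry12, a defining microglial receptor, was at 0 in 10 of the 11 libraries and at 11.2 in KO1 B. Markers of border macrophages, which the gate could also hold, summed to 907 to 6384, with Cd163 and Cbr2 at 0 in all 11 libraries. In endothelial cells the endothelial markers summed to 230197 to 285656 and the microglial markers to 85 to 2089, with P2ry12 and Sall1 at 0 in all 10.

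In microglia 8 of the 9 factors were detected in all 11 libraries, and Mef2c was listed at 0 in every one. P2ry12, a defining microglial receptor, was also listed at about 0. Whether the 0 of Mef2c lies in how reads were assigned or in the cells was not tested, and it is not read as absence. Per kilobase of the longest coding transcript, the mean level over the 11 libraries ran from Cebpb (20422 normalised counts per kb) through Spi1 (4400) and Bhlhe41 (2060) to Mef2a (520), Runx1 (514) and Cebpa (357), and then to Ikzf1 (57.9) and Maf (28.5). Mef2a and Runx1, neighbours in that order, differed by less than the spread of either over the libraries. Cebpb lay above 99.5% of the 13950 genes with any count, Bhlhe41 above 98% and Spi1 above 96.7% in mean count, and Maf above 41.8%. In these bulk samples fewer cells of a type and less RNA per cell cannot be told apart. Microglial counts below 54.3 are approximate, because the conversion to counts is anchored only down to a mean of that size. Among them are Ikzf1 in PBS A (10.4), P2ry12 in KO1 B (11.2) and Cx3cr1 in some libraries. Counts of single libraries, those of Maf included, had no reference value to be checked against.

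**Figure D1:**
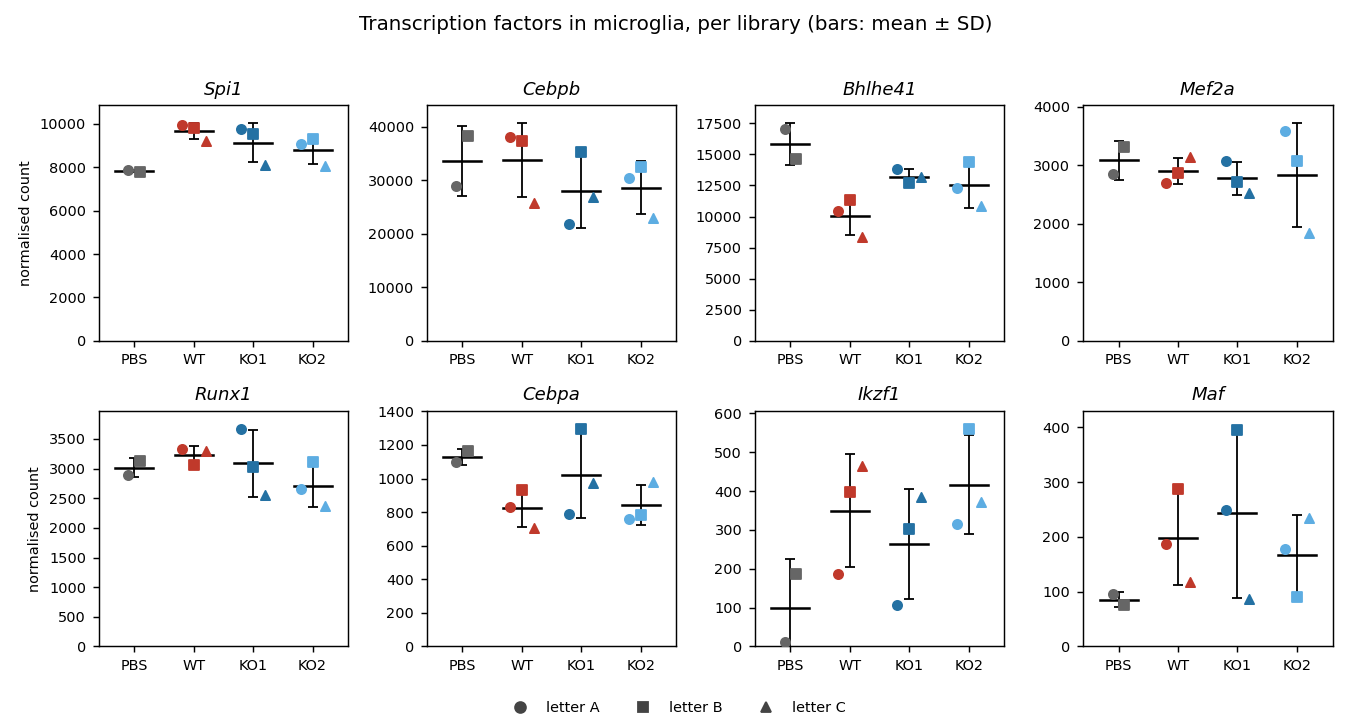
Normalised counts of the 8 detected factors in the 11 microglia libraries, by group; each point is a library, its shape the letter, and the bars give the mean and SD (cut at 0). Both PBS libraries lie below every exosome library for Spi1 and above every one for Bhlhe41.

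Spi1 (gene 20375, chr2:91082374-91115759, 5 exons) varied least, relative to its mean, of the 8 factors detected in microglia. Its normalised counts were 7876 and 7799 in PBS A and B. They were 9932, 9827 and 9224 in WT, 9758, 9529 and 8093 in KO1, and 9054, 9296 and 8049 in KO2 (letters A, B and C in each). Both PBS libraries lay below all 9 exosome libraries, and the WT and knockout libraries overlapped. The mean was 7837 ± 54.4 (SD, n = 2) in PBS and 9661 ± 382 (n = 3) in WT, a ratio of 1.23. The limma difference between WT and PBS on the deposited log2 scale was 0.26 (SE 0.139, 95% interval -0.04 to 0.57; adjusted p = 0.967), and that between the knockout mean and PBS was 0.17 (adjusted p = 0.94). Neither passed the threshold of 0.05. Within a letter, all 6 ratios of an exosome library to the PBS library lay between 1.15 and 1.26, and all 6 ratios of a knockout to WT lay between 0.873 and 0.983. The labels do not say what a letter marks. The share of all genes with such ratios was not taken, here or for the factors below. That the ratios to PBS lay above 1 follows from the groups not overlapping, and they share 2 PBS libraries. The ratios to WT share 3 WT libraries.

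Bhlhe41 (gene 79362, chr6:145858243-145865420, 5 exons) had the opposite order and the largest difference of the 6 members tested. Its counts were 17036 and 14628 in PBS A and B. They were 10456, 11310 and 8355 in WT, 13794, 12664 and 13202 in KO1, and 12278, 14404 and 10814 in KO2. All 9 exosome libraries lay below both PBS libraries, and 1 knockout library, KO2 C, lay within the WT range. The means were 15832 ± 1702 (n = 2) in PBS, 10040 ± 1520 in WT, 13220 ± 566 in KO1 and 12499 ± 1805 in KO2 (n = 3 each), so that WT stood at 0.634 of PBS and the knockout mean at 1.28 of WT. The limma difference was -0.62 for WT minus PBS (SE 0.169, 95% interval -0.99 to -0.25; unadjusted p = 0.0030, adjusted p = 0.967) and 0.33 for the knockout mean minus WT (SE 0.131, 0.05 to 0.62; unadjusted p = 0.0255, adjusted p = 0.999). Without WT C the latter was 0.22. Knockout mean minus PBS was -0.29 (adjusted p = 0.94), and -0.18 without PBS A. None of these passed after adjustment over 5227 genes. Within a letter, 0 of 6 exosome libraries exceeded the PBS library (ratios 0.614 to 0.985), and 6 of 6 knockout libraries exceeded the WT library (1.12 to 1.58). The labels do not say what a letter marks, and the share of all genes with such ratios was not taken. The 0 of 6 follows from the groups not overlapping, and these ratios share 2 PBS libraries. The ratios to WT share 3 WT libraries. Summed choroid plexus markers in the same microglia were 669 to 5745 in PBS, 52 to 527 in WT, 15 to 1038 in KO1 and 32 to 10479 in KO2. The 12 microglial markers summed to 26967 and 32294 in PBS, 22884 to 25008 in WT, 21928 to 28043 in KO1 and 22713 to 32477 in KO2, so that all WT libraries lay below both PBS libraries for them too. Tmem119, a microglial surface protein gene, had 432 and 294 counts in PBS and 0 to 186 in the exosome libraries. Other markers of the 12 overlapped between PBS and exosome libraries. Csf1r had 1980 and 1474 counts in PBS and 698 to 2043 in the exosome libraries, and Cx3cr1 had 51.4 and 32.2 against 0 to 156. The part of these markers in the differences of Bhlhe41 and Spi1 was not tested.

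The C/EBP factors differed from each other in level and in spread. Cebpb (gene 12608, chr2:167688915-167690432, 1 exon) had 28904 and 38156 counts in PBS, 38101, 37383 and 25774 in WT, 21754, 35178 and 26806 in KO1, and 30464, 32392 and 22955 in KO2. The groups overlapped throughout, and the mean was 33530 ± 6542 in PBS and 33753 ± 6919 in WT. Its difference for the knockout mean minus WT was -0.27 (95% interval -0.71 to 0.17; limma adjusted p = 0.999), an interval that spans no difference. It was -0.47 without WT C and -0.17 without WT A. Cebpa (gene 12606, chr7:35119293-35121928, 1 exon), the factor of early myeloid commitment, had 1097 and 1164 counts in PBS, 829, 933 and 708 in WT, 792, 1298 and 975 in KO1, and 762, 784 and 980 in KO2. All 3 WT libraries lay below both PBS libraries, and KO1 B lay above both. Cebpa in WT stood at 0.729 of PBS in mean count, with a limma difference of -0.15 (95% interval -0.40 to 0.11; adjusted p = 0.976).

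Runx1 and Mef2a overlapped between all groups in microglia. Runx1 (gene 12394, chr16:92601466-92826074, 8 exons), the runt-domain factor of blood cell development, had 2898 and 3124 counts in PBS, 3339, 3057 and 3292 in WT, 3676, 3034 and 2558 in KO1, and 2657, 3111 and 2377 in KO2. Mef2a (gene 17258, chr7:67231163-67376456, 12 exons), a MADS-box factor, had 2845 and 3315 counts in PBS, 2696, 2866 and 3135 in WT, 3076, 2712 and 2529 in KO1, and 3578, 3068 and 1846 in KO2. The lowest value of each stood in KO2 C. For WT minus PBS the limma interval was -0.24 to 0.36 for Runx1 and -0.40 to 0.30 for Mef2a, and the adjusted p was 0.992 and 0.993.

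Maf and Ikzf1 were too low in microglia for the filter, which kept genes whose mean lay at least 1 log2 unit above the floor. Ikzf1 (gene 22778, chr11:11684962-11772930, 8 exons) had 10.4 and 187 counts in PBS, 185, 398 and 466 in WT, 107, 302 and 384 in KO1, and 316, 561 and 373 in KO2. Maf (gene 17132, chr8:115703253-115706894, 1 exon), the large MAF factor c-Maf, had 95.6 and 75.8 counts in PBS, 188, 287 and 117 in WT, 249, 395 and 86.2 in KO1, and 178, 89.9 and 234 in KO2. For each of them all 6 within-letter ratios of exosome to PBS lay above 1, from 1.61 to 30.3 for Ikzf1 and from 1.19 to 5.21 for Maf, but WT A and KO1 A lay inside the PBS range for Ikzf1, as KO1 C and KO2 B did for Maf. The 6 ratios of each factor share 2 PBS libraries, and the highest of Ikzf1 is set by the 10.4 counts of PBS A. With the filter lifted, the limma difference for WT minus PBS was 0.25 for Ikzf1 (adjusted p = 0.964) and 0.11 for Maf (adjusted p = 0.978).

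The 2 knockouts were also set against each other in microglia. For KO1 minus KO2 the limma difference was 0.08 for Bhlhe41 (95% interval -0.24 to 0.41), 0.04 for Spi1 (-0.22 to 0.31), 0.11 for Runx1 (-0.16 to 0.38) and 0.09 for Cebpa (-0.14 to 0.31). Cebpb had -0.05 (-0.56 to 0.46), the widest of the 6 intervals, and Mef2a -0.0025 (-0.32 to 0.31). Each interval spans 0. Within a letter KO2 exceeded KO1 in 0 of 3 pairs for Spi1 (ratios 0.928 to 0.995) and in 1 of 3 for Bhlhe41 (0.819 to 1.14).

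Across the 6 factors tested in microglia, limma called 0 in WT minus PBS, 0 in the knockout mean minus WT, 0 in the knockout mean minus PBS, 0 in KO1 minus KO2 and 0 in the F test over the 4 groups. Of all 5227 genes tested, 0.0% were called in each of these 5 comparisons. At an unadjusted p under 0.05 the genes numbered 253, 132, 253, 143 and 154 in that order, and of the members Bhlhe41 was there in the first, the second and the F test (F test unadjusted p = 0.0195). The members' median difference was -0.02 for WT minus PBS, beside -0.008 over all genes tested, -0.07 beside -0.002 for the knockout mean minus WT, and -0.09 beside -0.006 for the knockout mean minus PBS. In WT minus PBS, 3 of the 6 had groups that did not overlap, 1 higher (Spi1) and 2 lower (Cebpa and Bhlhe41), while 19.0% of all genes tested had such groups. In the knockouts against PBS it was 2 of 6 (Spi1 and Bhlhe41), beside 7.17% of all genes, and in the knockouts against WT 0 of 6, beside 1.49%. WT minus PBS and the knockout mean minus PBS share the PBS libraries.

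**Figure D2:**
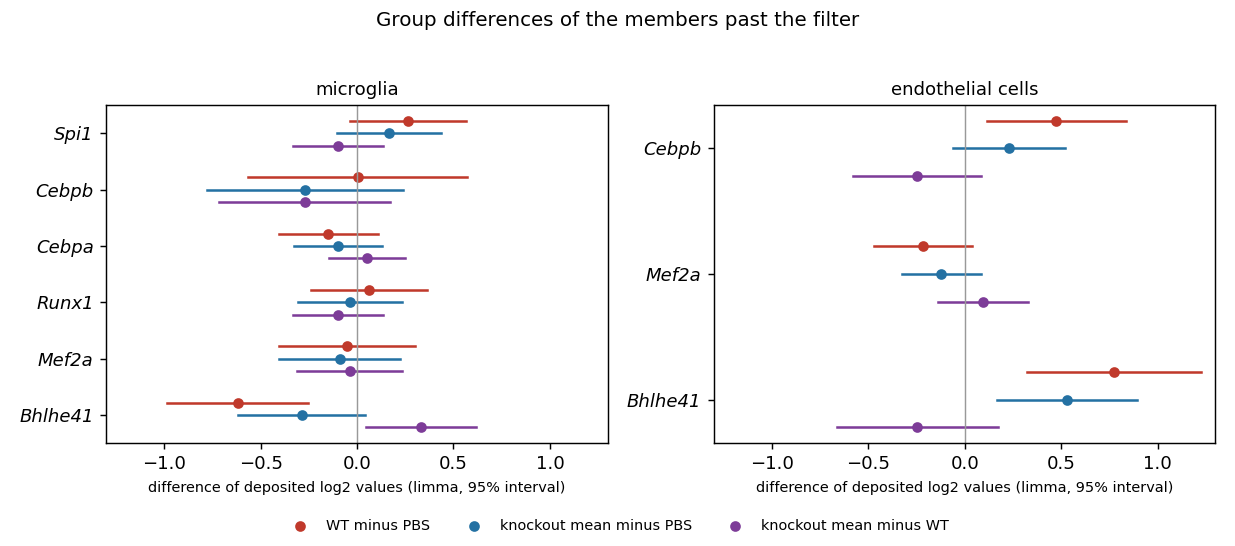
limma differences on the deposited log2 scale with 95% intervals, for the 6 members tested in microglia and the 3 tested in endothelial cells. The interval of Bhlhe41 for WT minus PBS lies below 0 in microglia (-0.99 to -0.25) and above 0 in endothelial cells (0.32 to 1.23).

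In endothelial cells Bhlhe41, Mef2a and Cebpb were abundant, and the other 6 factors lay lower, with Ikzf1 at 0 in all 10 libraries and Spi1 at 0 in 8. The mean over the 10 libraries was 6357 normalised counts per kb for Cebpb, 2574 for Bhlhe41 and 1754 for Mef2a, and it was 52.2 for Runx1, 36.2 for Cebpa, 24.0 for Spi1, 2.04 for Maf, 1.44 for Mef2c and 0 for Ikzf1. The 2 cell types come from tables that the authors normalised separately, so these levels are set beside the microglial ones without a test. Only Bhlhe41, Cebpb and Mef2a passed the filter, which in this table, with its floor at 13.28 log2 units, kept 1068 genes.

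Bhlhe41 in endothelial cells had the order opposite to that in microglia, a difference between the cell types that was not tested. Its counts were 9365, 6491 and 7893 in PBS A, B and C, and 30658 and 16578 in WT A and B. They were 24559, 9742 and 16679 in KO1 A, B and C, and 15067 and 20862 in KO2 B and C. All 7 exosome libraries lay above all 3 PBS libraries, the lowest of them, KO1 B, just above PBS A. The mean was 7916 ± 1437 in PBS (n = 3), 23618 ± 9956 in WT (n = 2), 16993 ± 7414 in KO1 (n = 3) and 17964 ± 4098 in KO2 (n = 2), which puts WT at 2.98 and the knockout mean at 2.21 times PBS. On the deposited log2 scale, which compresses differences in this table, WT minus PBS was 0.78 (SE 0.204, 95% interval 0.32 to 1.23; limma unadjusted p = 0.0031, adjusted p = 0.139) and the knockout mean minus PBS 0.53 (SE 0.165, 0.17 to 0.89; adjusted p = 0.208). Neither passed the threshold in this fit, which had no term for the letters. With the letter as a block both passed (limma adjusted p = 0.0224 and 0.0228), but the labels do not say what a letter marks. With no such term, WT minus PBS was 0.51 when WT A was left out. The knockout mean minus WT was -0.25 (-0.66 to 0.17; adjusted p = 0.797), and without WT A it was 0.02. Within a letter, 7 of 7 exosome libraries exceeded the PBS library, by 1.5 to 3.27 times, and 0 of 3 knockout libraries exceeded the WT library (0.588 to 0.909). The share of all genes with such ratios was not taken. The 7 of 7 follows from the groups not overlapping, and these ratios share 3 PBS libraries.

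Markers of the choroid plexus, a secretory tissue of the ventricles, summed to 68 to 4731 counts in the endothelial PBS libraries, 172956 and 189165 in WT, 168842, 285026 and 2938 in KO1 A, B and C, and 262052 and 17538 in KO2 B and C. Fibroblast and meningeal markers summed to 598 to 1471 in PBS, 4571 and 7685 in WT, and 286 to 12792 in the knockout libraries. Astrocyte markers summed to 19173 to 41756 in PBS, 9661 and 16671 in WT, 13628 to 25082 in KO1 and 19564 and 20379 in KO2, so that both WT libraries lay below all PBS libraries. Neuronal markers summed to 8 to 142 in PBS and to 362 and 883 in WT, and microglial markers to 782 to 1028 and to 1168 and 2018. The part of these markers in the differences of Bhlhe41, Cebpb and Mef2a was not tested. The authors' deposited table of genes that differ among the endothelial groups lists Bhlhe41, at rank 16 of 362 by adjusted p (adjusted p = 4.3e-11 from their likelihood ratio test over the groups), with a mean normalised count of 15789. It is the 1 member in that table, and 0 of the 9 are among the 238 genes of the authors' deposited table for microglia. The 362 and 238 stand beside 20555 genes in each table of deposited values. Of these, 14164 had any count in endothelial cells and 13950 in microglia.

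**Figure D3:**
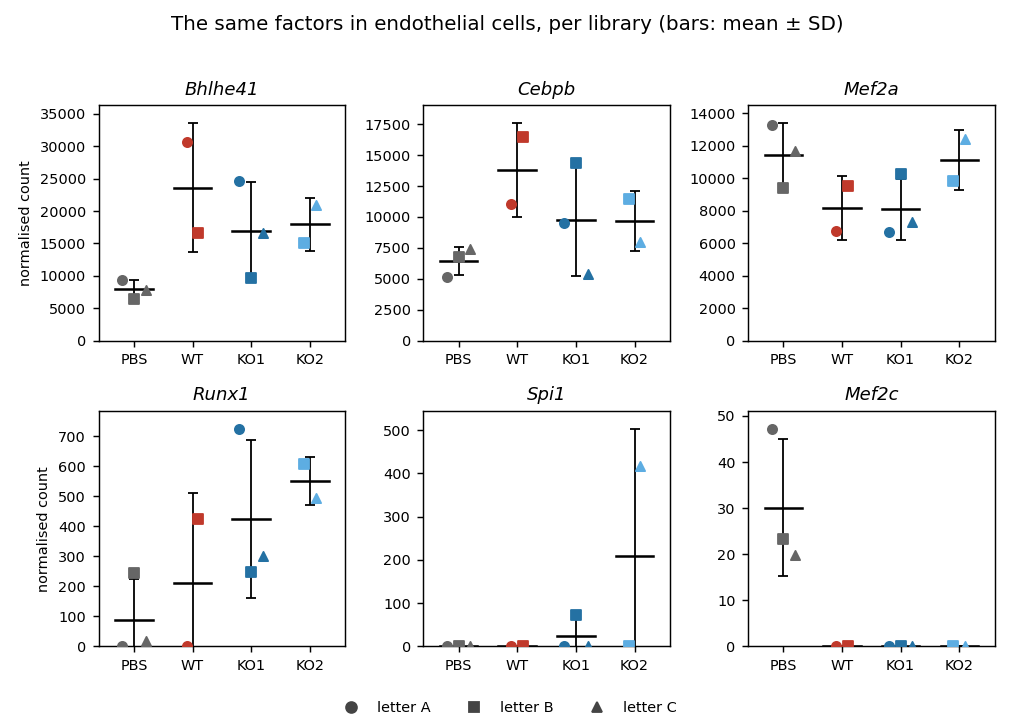
Normalised counts of 6 factors in the 10 endothelial libraries, by group; each point is a library, its shape the letter, and the bars give the mean and SD (cut at 0). Bhlhe41 lies above every PBS library in all 7 exosome libraries, and Spi1 is above 0 in KO1 B and KO2 C.

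Cebpb in endothelial cells had 5189, 6731 and 7431 counts in PBS, 11086 and 16480 in WT, 9516, 14395 and 5371 in KO1 A, B and C, and 11413 and 7991 in KO2 B and C. Both WT libraries lay above all PBS libraries, and KO1 C lay inside the PBS range. WT stood at 2.14 times PBS in mean count and the knockout mean at 1.51 times. The limma difference was 0.47 for WT minus PBS (SE 0.163, 95% interval 0.11 to 0.84; adjusted p = 0.207) and 0.23 for the knockout mean minus PBS (adjusted p = 0.475). Mef2a had 13278, 9395 and 11665 counts in PBS, 6775 and 9546 in WT, 6701, 10239 and 7309 in KO1, and 9805 and 12406 in KO2. The groups overlapped, with WT A, KO1 A and KO1 C the 3 lowest libraries. Its difference for WT minus PBS was -0.22 (95% interval -0.47 to 0.04; limma adjusted p = 0.339), and -0.12 without WT A.

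The remaining 6 factors were low in endothelial cells. Spi1 was at 0 in 8 of the 10 libraries and had 71.7 counts in KO1 B and 417 in KO2 C. These were also the 2 libraries with any count of Ptprc, at 119 and 290. Ptprc is the gene of CD45, a protein the gate was set to be without. Other myeloid markers did not follow Spi1. Csf1r was at 0 in KO1 B and KO2 C and highest in WT B (246) and KO2 B (102), both with Spi1 at 0. Microglial markers summed to 1320 in KO1 B and 973 in KO2 C, beside 2018 in WT B and 2089 in KO2 B. Border macrophage markers summed to 423 in KO1 B and 0 in KO2 C, beside 1287 in WT B and 1291 in KO2 B. The part of these markers in the Spi1 counts was not tested. Itgam, which encodes CD11b, had 1226 counts (WT B), 1298 (KO1 B) and 438 (KO2 B) and at most 27.3 in the other 7. Runx1 was at 0 in PBS A and WT A, and had 246 and 16.5 counts in PBS B and C and 424 in WT B. It had 725, 249 and 299 in KO1 and 607 and 493 in KO2, so that all 5 knockout libraries lay above all PBS libraries, KO1 B by little. With the filter lifted, the limma difference of Runx1 for the knockout mean minus PBS was 0.22 (adjusted p = 0.683). Mef2c (gene 17260, chr13:83504017-83667079, 12 exons) was the 1 factor of the 9 seen in PBS and in no exosome library: 47.3, 23.2 and 19.9 counts in PBS A, B and C and 0 in the other 7. These are low counts, at 13.38, 13.35 and 13.35 log2 units beside the floor of 13.28. PBS A, B and C had 11305, 11952 and 11668 genes above the floor. Exosome libraries ran from 9235 (WT A) to 11531 (KO1 B), and only KO1 B exceeded a PBS library, PBS A. The part of detection in the 0 of Mef2c was not tested, and this 0 is not read as absence. With the filter lifted, the limma difference of Mef2c for the knockout mean minus PBS was -0.08 (adjusted p = 0.088). For WT minus PBS it was -0.08 (adjusted p = 0.185). Cebpa ranged from 0 to 409, highest in WT A, Maf from 0 to 48.4, and Ikzf1 was listed at 0 in all 10.

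The fit behind the endothelial counts had no term for the letters. Of the 3 members tested in endothelial cells limma called 0 in WT minus PBS, 0 in the knockout mean minus WT, 0 in the knockout mean minus PBS, 0 in KO1 minus KO2 and 0 in the F test. Over all 1068 genes tested, 0.0% were called in each of these comparisons other than KO1 minus KO2, where 0.0936% were called, which is 1 gene. At an unadjusted p under 0.05 the genes numbered 187, 57, 148, 42 and 119 in that order, and of the members Bhlhe41 was there in the first, the third and the F test (F test unadjusted p = 0.0148) and Cebpb in the first. The groups did not overlap for 2 of the 3 in WT against PBS (Bhlhe41 and Cebpb, both higher), beside 40.4% of all genes tested. It was 1 of 3 for the knockouts against PBS (Bhlhe41), beside 8.99%, and 0 of 3 for the knockouts against WT, beside 10.1%.

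The genes whose values over libraries were most like those of Bhlhe41 were taken by Pearson r on the deposited log2 scale, as a description. In microglia, over 11 libraries and 5227 genes, they were Matr3 (r = 0.943), which encodes a nuclear matrix protein, Metrnl (0.844), a secreted factor, and Rpn2 (0.814), a subunit of the oligosaccharyltransferase. In endothelial cells, over 10 libraries and 1068 genes, they were Stc1 (0.943), the secreted hormone stanniocalcin, Nudc (0.890), a chaperone of nuclear movement, and Tap2 (0.871), a subunit of the peptide transporter for antigen presentation. These values share libraries, depth and group differences with Bhlhe41, and genes are not independent replicates.

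Paralogues of the 9 factors are set beside them here as levels, in tables normalised separately and without a test. Mef2d had a mean of 566 normalised counts per kb in microglia, close to Mef2a at 520, and 719 in endothelial cells. Mef2c was listed at 0 in microglia, which is not read as absence. Bhlhe40, the paralogue of Bhlhe41, had a mean of 80.6 per kb in microglia against 2641 in endothelial cells, where it differed from Bhlhe41 (2574) by less than the spread of either over the libraries. Cebpd was at 137 in microglia and 1716 in endothelial cells, Cebpg at 696 and 1467. Runx2 and Runx3 were below 1 per kb in both cell types, and Ikzf5 had means of 182 and 215, above the 57.9 and 0 of Ikzf1. Sall1, a nuclear factor of microglial identity that lies outside these families, had 64.3 per kb in microglia, at 0 in some libraries of WT and KO2, and 0 in endothelial cells.

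**Figure D4:**
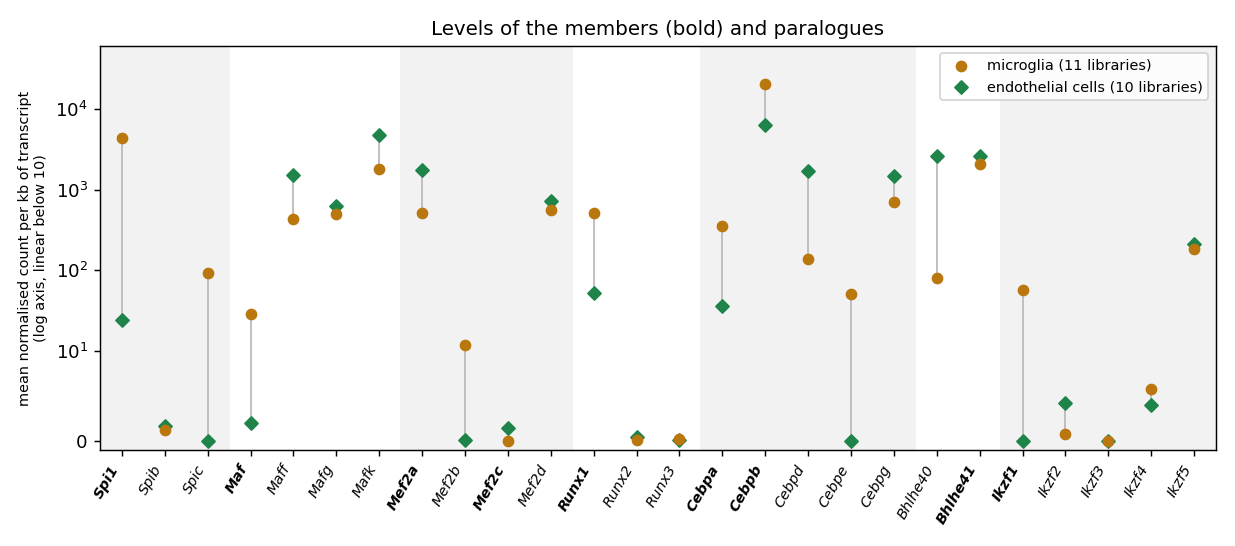
Mean normalised count per kb of the longest coding transcript, on a log axis that is linear below 10, for the 9 factors (bold) and paralogues of theirs in microglia (circles, 11 libraries) and endothelial cells (diamonds, 10 libraries). Spi1, Runx1, Cebpa and Ikzf1 lie higher in microglia, and Bhlhe40 and Cebpd in endothelial cells, in tables normalised separately.

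Genes tied to these factors were read from lists chosen with earlier results known, and limma called none of their tested members in any of the microglial comparisons. Of all genes tested in microglia, 48.3% lay higher in WT minus PBS (median -0.008) and 49.3% in the knockout mean minus WT (median -0.002). These shares stand beside every microglial list count given here. Of 34 myeloid genes bound by PU.1, 27 were tested in microglia. In WT minus PBS 17 lay higher and 10 lower with a median of 0.09, and in the knockout mean minus WT 8 lay higher and 19 lower with a median of -0.11. Cd53, a leukocyte tetraspanin, had a difference of -0.54 for WT minus PBS, and Ptprc 0.46 (adjusted p = 0.967 each). Of 20 inflammatory genes associated with C/EBP, 9 were tested. In WT minus PBS 8 lay higher (median 0.64), and in the knockout mean minus WT 8 lay lower (median -0.38). The cytokine gene Tnf had a difference of 0.98 (unadjusted p = 0.0222), Ccl2 1.13 and the neutrophil attractant Cxcl2 1.93 (limma adjusted p = 0.967 each), beside Cebpb means of 33753 in WT and 33530 in PBS. The authors' deposited table of 238 genes that differ among the microglial groups holds 6 of these 20 genes, Il1a, Il1b, Ptgs2, Ccl2, Cxcl2 and Tnf. It also holds 5 of the 34 genes bound by PU.1, which are Cd53, Cybb, Fcgr1, Laptm5 and Syk. The 238 stand beside 20555 genes in the deposited values, 13950 of them with any count in microglia. As the lists were chosen with earlier results known, these counts are a description only. None of the other lists of genes tied to the factors has a gene in the authors' deposited table for microglia. In endothelial cells 7 of 7 tested genes of the C/EBP list lay higher in WT minus PBS (median 0.77). Of all genes tested there 43.7% lay higher (median -0.028). Ptgs2, the prostaglandin synthase, had a difference of 1.02 (limma adjusted p = 0.115). For the knockout mean minus WT 6 of the 7 listed genes lay lower (median -0.28), while 52.4% of all genes lay higher (median 0.007).

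Genes associated with MEF2 lay lower in microglia of the WT group for 5 of 5 tested (median -0.25), and Klf2, a Krüppel-like factor that MEF2 induces, had 1636 ± 647 counts in PBS (n = 2), 698 ± 289 in WT, 420 ± 20.0 in KO1 and 678 ± 407 in KO2. Its difference was -0.42 for WT minus PBS (adjusted p = 0.967) and -0.51 for the knockout mean minus PBS (unadjusted p = 0.0032, adjusted p = 0.94). Macrophage genes associated with MAF lay higher for 5 of 6 tested in WT minus PBS (median 0.19), with Stab1, a scavenger receptor, at 0.29 (adjusted p = 0.976). Of 17 clock genes, in whose loop DEC2 acts, 6 were tested: 2 lay higher and 4 lower in WT minus PBS (median -0.05). Tef, a PAR bZIP output factor of the clock, had a difference of 0.77 for WT minus PBS (unadjusted p = 0.0050, adjusted p = 0.967) and 0.81 for the knockout mean minus PBS (adjusted p = 0.94), from a mean of 150 ± 213 in PBS to 1019 ± 403 in WT, and PBS held a library at 0. Among 36 other lineage factors 16 were tested, 7 higher and 9 lower in WT minus PBS (median -0.04), with Etv6, an ETS repressor, at -0.60 and Zeb2, a zinc finger factor of myeloid cells, at -0.38 (adjusted p = 0.967 each). Of 18 paralogues 7 were tested (3 higher, 4 lower, median -0.01), and of 21 partners and modulators 12 (3 higher, 9 lower, median -0.10). Ddit3, which encodes a C/EBP-related inhibitor, had -0.24 (adjusted p = 0.972), and Mef2d 0.28 (adjusted p = 0.972).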

How the data were processed

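RNA of sorted microglia and endothelial cells was measured in 11 and 10 libraries. Not analysed here were endothelial WT C, endothelial KO2 A and microglial PBS C. The submitters' processing notes name FastQC 0.11.7, Trimmomatic 0.38, Salmon 0.10.0, DESeq2 1.18.1 and GRCm38.p6, with no role or order. Per cell type the authors deposited 1 table of log2 values, which the labels call variance-stabilised counts and in which a gene with no reads sits at 9.89 in microglia and 13.28 in endothelial cells. Their other tables hold deposited p-values of a likelihood ratio test, a deposited mean normalised count (a signal), a log2 fold change for which no contrast is stated, and 2 deposited scores, its error and the test statistic. Variance-stabilised values compress differences of low counts, and in the endothelial table of high ones too.

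Normalised counts were recovered for description. In endothelial cells the transform was inverted, and the recovered over the authors' mean was 1.0000 for 362 genes. In microglia a curve was fitted to the authors' means of 238 genes, and the means of held-out genes over the 11 libraries were off by at most 0.304%. Counts of single libraries had no reference value, so this is not their error. The read depth behind these counts is unknown. Levels per kb used the longest coding transcript of GENCODE. Of the 20555 identifiers 20537 had a symbol in the RefSeq table.

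limma 3.58.1 (R 4.3.3), with a mean-variance trend, tested the deposited log2 values in a single fit per cell type over all its libraries and with no term for the letters. A mean at least 1 above the floor was required, met by 5227 of 13950 varying genes in microglia and 1068 of 14164 in endothelial cells, and Benjamini-Hochberg adjustment ran over all of them with a threshold of 0.05. The fit was tested on simulated data. The members and all lists were chosen with earlier results of these data known. All 9 members are named. From each other list genes past the test were to be named, and, since there were none, up to 3 of smallest p per comparison could be, some of which are not reported here. The alternatives were no filter, no trend, only the groups compared, the letter as a block, the log2 of recovered counts plus 1 or plus 50, the C libraries left out, each library left out, and, chosen after the values were seen, the 3 endothelial libraries with the highest Itgam left out.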

Additional observations from a re-analysis of the deposited data

Results flagged for a closer look

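Bhlhe41 had opposite differences in the 2 cell types under the same contrast. For WT minus PBS the limma difference was -0.62 in microglia, where all 3 WT libraries lay below both PBS libraries, and 0.78 in endothelial cells, where both WT libraries lay above all 3 PBS libraries. For the knockout mean minus PBS it was -0.29 in microglia and 0.53 in endothelial cells, and again every exosome library of a cell type lay on 1 side of every PBS library. For WT against PBS, 19.0% of all genes tested in microglia and 40.4% in endothelial cells had groups that did not overlap. For the knockouts against PBS the shares were 7.17% and 8.99%. The tables were normalised separately, and the difference between the cell types was not tested. The summed choroid plexus markers, which lay apart from PBS in most of the endothelial exosome libraries, are given beside the endothelial values.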

How the results depend on the processing

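Over 826 alternatives to 46 results, no member was called in microglia under any setting tried. In endothelial cells the replicate block raised the number of members passing from 0 to 1, Bhlhe41, in WT minus PBS (difference 0.78, limma adjusted p = 0.0224, 14 genes called in all), in the knockout mean minus PBS (0.59, adjusted p = 0.0228, 25 genes) and in the F test (6 genes). In microglia it raised the genes called from 0 to 46, 38 and 25 in the same comparisons, no member among them. The labels do not say what a letter marks. Deviations from the group means correlated at 0.092 to 0.569 for the 12 pairs of endothelial libraries with the same letter and at -0.569 to 0.366 for the 25 with different letters. In microglia the values were 0.02 to 0.554 over 15 pairs and -0.436 to 0.129 over 30. The median for the same letter was 0.293 in endothelial cells and 0.155 in microglia, against -0.146 and -0.076 for different letters. Every same-letter value was positive. Deviations within a group sum to 0, so positive same-letter values go with negative ones for different letters, and the pairs are not independent. In a group of 2 libraries the deviations are exact opposites, as for endothelial PBS A with WT A (0.291) and with WT B (-0.291). The 3 endothelial libraries with the highest Itgam, left out together after the values were seen, left Bhlhe41 at 1.04 for WT minus PBS (adjusted p = 0.143) and 0.69 for the knockout mean minus PBS (adjusted p = 0.458). Leaving out single libraries gave 0 members passing in every comparison, with 0 to 2 genes called in microglia and 0 to 14 in endothelial cells.

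No direction that turned belonged to a called difference. The largest difference that turned was the knockout mean minus WT of Bhlhe41 in endothelial cells, -0.25 with all libraries and 0.02 without WT A. On the log2 scale of recovered counts plus 1, WT minus PBS was -0.4650 for Cebpa in microglia, and 1.0832 for Cebpb and -0.4948 for Mef2a in endothelial cells (adjusted p 0.982, 0.211 and 0.333). With the replicate block WT minus PBS of Mef2a in microglia was 0.0007, the knockout mean minus PBS of Runx1 0.0033, and KO1 minus KO2 of Cebpb in endothelial cells 0.0125. Without the C libraries the values in microglia were 0.0943 for Mef2a in the knockout mean minus WT, 0.0280 for Runx1 and 0.0071 for Mef2a in the knockout mean minus PBS, and -0.0089 for Bhlhe41 in KO1 minus KO2. In endothelial cells they were 0.0229 for Cebpb and 0.0492 for Bhlhe41 in KO1 minus KO2. On the log2 scale of recovered counts KO1 minus KO2 of Mef2a in microglia was 0.0192 (plus 1) and 0.0179 (plus 50). With single libraries left out, the ranges in microglia were -0.2131 to 0.218 for Cebpb and -0.1197 to 0.015 for Mef2a in WT minus PBS, -0.0942 to 0.0408 for Mef2a in the knockout mean minus WT, and -0.0783 to 0.0016 for Runx1 in the knockout mean minus PBS. For KO1 minus KO2 they were -0.2397 to 0.1248 for Cebpb, -0.1592 to 0.1109 for Mef2a, -0.0102 to 0.1191 for Spi1 and -0.0095 to 0.1836 for Bhlhe41. In endothelial cells they were -0.006 to 0.1969 for Mef2a and -0.5121 to 0.0211 for Bhlhe41 in the knockout mean minus WT, and -0.1675 to 0.136 for Cebpb and -0.2431 to 0.11 for Bhlhe41 in KO1 minus KO2. The cause was not tested. For WT minus PBS of Bhlhe41 the range over all alternatives was -0.73 to -0.51 in microglia (adjusted p 0.155 to 0.998) and 0.51 to 1.53 in endothelial cells (adjusted p 0.0224 to 0.404). Groups of 2 or 3 libraries and an unknown depth limit what differences could be seen.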
